A study of Mus musculus with 14 samples.

Results

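The comparison described here asked whether Ikaros activity and IL-7 withdrawal together changed a gene more or less than the sum of their separate differences after 24 h of culture. Its values come from 8 of the 14 arrays of the series, 2 for each of 4 groups; the 6 others entered the fit and its estimate of the spread. It covered all 19938 genes with a probe set of a single gene symbol. For each gene the difference made by 4-hydroxytamoxifen (4OHT) in the presence of IL-7 was subtracted from the difference made by 4OHT in its absence, within each of 2 independent experiments. The result is called the interaction below. It is in log2 units, and 0 means that the separate differences add up.

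The cells were 1 mouse line, BH1-Bcl2-Ik1ER, an Ikaros-deficient pre-B line that carries 2 retroviruses, for the survival protein Bcl2 and for Ikaros fused to an estrogen receptor, and was sorted for cells that took up both. All groups share the Ikaros deficiency and both retroviruses. Untreated cells stayed for 24 h in medium with 8% conditioned medium as the source of IL-7 and without 4OHT. The second group received 100 nM 4OHT with IL-7, the third had no conditioned medium and no 4OHT, and the fourth had 100 nM 4OHT without conditioned medium. No array came from cells without the fusion, so an effect of the drug itself and one of the fusion cannot be told apart. Removal of IL-7 also removed everything else in the conditioned medium.

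Ikaros is a zinc finger protein that binds DNA and is required for normal development of B cells from their precursors. IL-7 is the cytokine that keeps early B cell precursors alive and dividing, through STAT5, MYC and the D cyclins. Loss of IL-7 signals and Ikaros are both known to move large cycling pre-B cells toward small resting pre-B cells, which is the setting in which a joint effect was measured here.

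Defining genes of pre-B cells were high on the 8 arrays: the surrogate light chain gene Igll1 at 13.43 to 13.91 and the B cell receptor subunit gene Cd79a at 11.89 to 13.03. The median of all values was 7.33. Rag1 and Rag2, the recombinase genes of light chain rearrangement, were below that median on all 8 arrays. Of the markers of other cell types, 1 of 5 T cell, 2 of 5 NK cell, 1 of 7 myeloid, 2 of 4 erythroid and megakaryocyte, 2 of 5 plasma cell and 3 of 6 stromal genes had any group mean above it. The summed levels of these lists ranged over the groups from 32.2 to 33.1 for T cell and from 43.9 to 44.9 for myeloid genes. The NK cell genes had the widest range, 29.3 to 31.1. The 2 arrays of each 24 h group correlated at 0.9944 to 0.9965 over all probe sets.

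The interaction passed in 449 of 19938 genes (2.25%), at a Benjamini-Hochberg adjusted p under 0.05 in a limma fit with the experiment number as a block. It was below 0 in 367 genes (1.84%) and above 0 in 82 (0.411%), against a median of 0.03 over all genes. A list member is called lower or higher below where its interaction passed below or above 0, which is a statement on the interaction and not on its level. The absolute interaction was at least 1 in 59 of them (0.296% of all genes), 52 lower and 7 higher. All 449 had the same sign in both experiments, as 57.7% of all genes did; that sign comes from the tested arrays. At an unadjusted p under 0.05 the count was 2995 genes (15%). Without the experiment number in the fit 137 genes passed (0.687%), 123 lower (0.617%) and 14 higher (0.0702%), all among the 449 and in the same direction. Leaving out 1 array at a time gave between 201 and 325 genes. The count fell to 204 without the untreated array of experiment 2, to 273 and 238 without the 4OHT arrays of experiments 1 and 2, to 201 without the IL-7 loss array of experiment 2, and to 271 and 297 without the arrays of experiments 1 and 2 with both treatments.

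The passing genes were sorted by their group means. Synergy means that the mean with both treatments lay beyond the 3 other means in the direction of the interaction, and opposition means that it did not. This sorting uses the same arrays as the test and is a description. Synergy was found in 370 genes, 322 toward lower and 48 toward higher levels. The other 79 showed opposition, 34 with an interaction above 0 and 45 below 0. On a linear scale the interaction of the group means kept its sign in 443 of the 449 genes and changed it in 6, among them Ccnd2 and E2f2. Computed within each experiment, it kept its sign in both in 313 of the 322 and all 48 genes of synergy. The same held for 33 of the 34 and 44 of the 45 genes of opposition. In Lig1 and Pgk1, described below, the linear interaction was above 0 in experiment 1 and below 0 in experiment 2.

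**Figure D1:**
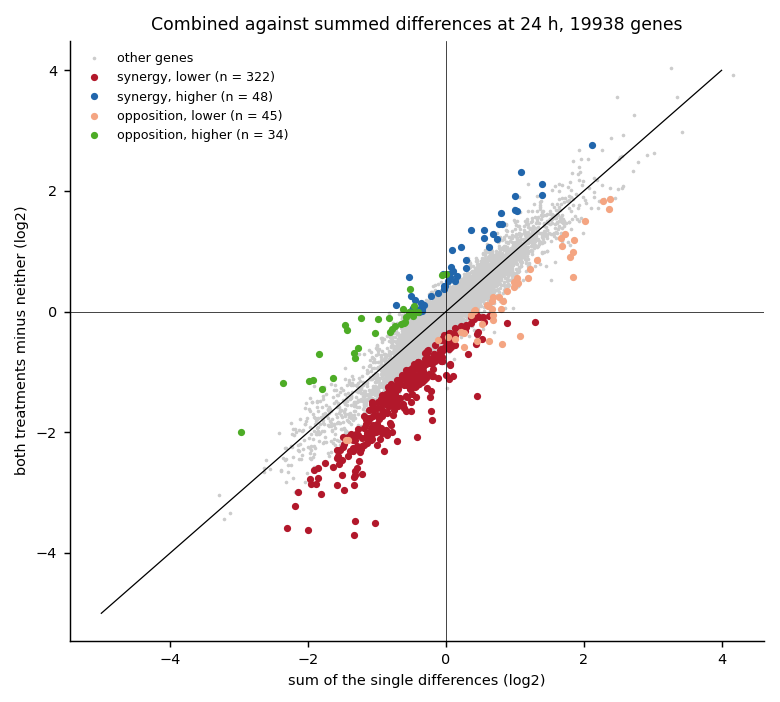
Each point is 1 of 19938 genes, with the sum of the single differences (4OHT with IL-7 plus IL-7 loss without 4OHT, log2) on the x axis and the difference between both treatments and neither (log2) on the y axis; the line marks equality. The axes share the untreated arrays. The 322 genes of synergy toward lower levels lie below the line and make up most of the coloured points.

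In the 322 genes of synergy toward lower levels the median interaction was -0.69 (range -2.47 to -0.36). Their median difference was -0.18 for 4OHT with IL-7, -0.37 for IL-7 loss without 4OHT and -1.29 for both against neither. Both arrays with both treatments lay below all 6 other 24 h arrays in 301 of them (93.5%, against 21.8% of all genes in the direction of their own interaction). The 322 genes were chosen on these arrays, so this share describes the class and supports nothing. Both single mean differences pointed down in 190 of these genes. IL-7 loss alone had pointed up in 84, 4OHT alone in 37, and each of them in 11.

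Myc, the transcription factor that drives growth and ribosome production, had the largest interaction. It read 12.88 and 12.86 in experiments 1 and 2 in untreated cells, 12.63 and 12.66 with 4OHT, and 12.10 and 12.05 without IL-7. With both treatments it read 9.31 and 9.43, far below the 6 other arrays, where the sum of the single differences would give 11.84. The interaction was -2.47 (SE 0.135, adjusted p = 3.93e-06), and the mean with both treatments was 11.3-fold below untreated. Of the 13 genes of the MYC network, MYC with its partners and relatives, no other member passed. The list median was -0.01.

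Enzymes of polyamine and nucleotide synthesis followed. Srm, which makes spermidine, read 12.30 and 12.36 untreated, 12.31 and 12.30 with 4OHT, 11.14 and 10.90 without IL-7, and 8.55 and 8.71 with both. The groups with and without 4OHT overlapped as long as IL-7 was present, and the interaction was -2.37 (SE 0.186, adjusted p = 4.85e-05). Dctd, the deaminase that turns dCMP into dUMP, read 11.27 and 11.20, then 11.17 and 11.12, 10.10 and 9.92, and 7.65 and 7.87 in the same order, an interaction of -2.16 (SE 0.144, adjusted p = 1.46e-05). In both genes the pair of arrays with both treatments was separated from all others by over 2 log2 units.

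Ppa1, the cytosolic pyrophosphatase, read 10.60 and 10.52 untreated, 10.38 and 10.34 with 4OHT, 8.77 and 8.73 without IL-7 and 6.79 and 7.07 with both. Its interaction was -1.62 (adjusted p = 0.00166). Dnph1, a hydrolase of deoxynucleotides, read 10.55 and 10.44, 10.24 and 10.33, 9.35 and 9.40, and 7.69 and 7.56, an interaction of -1.54 (adjusted p = 0.000362). The promoter table lists windows for 6 of the 8 genes with the largest synergy toward lower levels, not for Myc or Srm. In these 2 of the 6 the window held CACGTG, the E-box that MYC binds. Dctd, Il33 and Vegfa have several windows each, and neither these nor that of Nrp2 held it. Over all genes tested 6.99% of windows held it, counted by window and not by gene. The windows are 250 bases before the RefSeq start (GRCm38.p6), at chr10:61648371-61648620 for Ppa1 and chr17:46496539-46496788 for Dnph1, both on the plus strand, with the E-box in capitals. It begins 140 bases before the start in Ppa1 and 17 before it in Dnph1.
Ppa1: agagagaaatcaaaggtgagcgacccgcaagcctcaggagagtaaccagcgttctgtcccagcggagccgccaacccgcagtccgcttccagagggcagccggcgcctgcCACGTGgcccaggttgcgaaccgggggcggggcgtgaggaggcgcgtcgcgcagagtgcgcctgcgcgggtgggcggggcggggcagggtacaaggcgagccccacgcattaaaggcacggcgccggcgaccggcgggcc
Dnph1: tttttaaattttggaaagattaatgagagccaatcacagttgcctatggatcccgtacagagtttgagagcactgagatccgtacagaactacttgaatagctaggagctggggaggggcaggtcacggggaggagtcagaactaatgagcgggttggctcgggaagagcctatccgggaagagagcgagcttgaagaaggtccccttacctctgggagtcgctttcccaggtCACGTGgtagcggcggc

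The share of windows with a motif was also counted over the whole class. CACGTG was present in 7.78% of the 347 windows found for 265 of the 322 genes, against 6.99% of the 19177 windows of all genes tested. TGGGAA, the core that Ikaros binds, was present in 24.2% against 20.9%, the STAT motif TTCNNNGAA in 5.76% against 6.55%, and the forkhead motif TGTTTAC in 2.88% against 2.67%. Each motif was searched on both strands. A match of TTCNNNGAA can hold TGGGAA or its reverse complement, so these shares can count the same letters. A match is a description of these letters and not a binding site.

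Receptors, ligands and secreted factors made up the rest of the 8. Vegfa, the growth factor of blood vessels, read 10.02 and 10.09 untreated, 9.87 and 9.89 with 4OHT, 9.92 and 10.12 without IL-7 and 8.33 and 8.19 with both. Neither single difference passed (-0.17 with adjusted p = 0.44 for 4OHT, -0.03 with adjusted p = 0.92 for IL-7 loss), while the interaction was -1.59 (SE 0.201, adjusted p = 0.000961). Nrp2, a co-receptor for semaphorins and VEGF, read 10.06 and 9.91, 8.89 and 8.76, 10.70 and 10.76, and 7.92 and 7.90 in that order. It was highest after IL-7 loss alone and lowest with both treatments, with an interaction of -1.66 (SE 0.107, adjusted p = 1.46e-05). The cytokine gene Il33 had the same order, at 7.69 and 7.15, 6.85 and 6.35, 8.89 and 8.50, and 6.11 and 5.92, an interaction of -1.86 (SE 0.329, adjusted p = 0.00957). Il33 lay under the median of all values in several groups. Without the experiment number it missed the threshold (adjusted p = 0.0559), and leaving out 1 array ended its call in 3 of 8 cases. The 7 others passed under all 15 alternative settings.

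**Figure D2:**
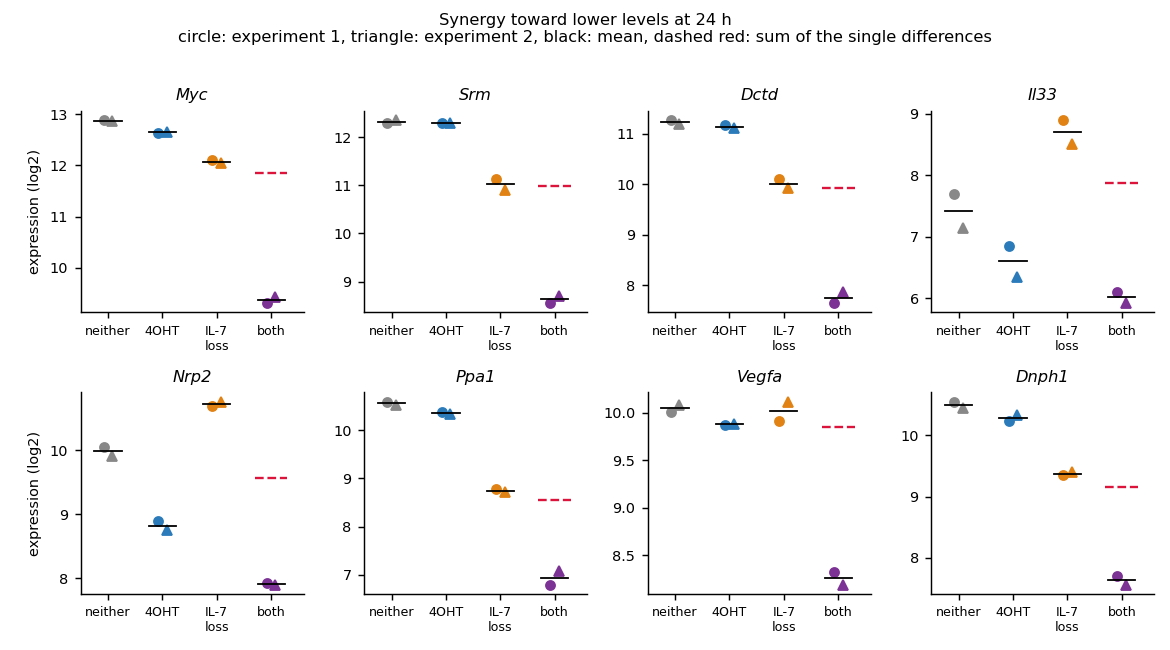
The 8 genes with the largest synergy toward lower levels: log2 expression on each 24 h array by group, with the group mean (black) and the level that the sum of the single differences gives (dashed red). In Myc the arrays with both treatments sit at 9.31 and 9.43, under a sum of 11.84.

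Genes of ribosome biogenesis and other MYC targets had the highest share of passing members among the 34 gene lists. The lists were chosen with earlier results of these data known, so this rank is a description and supports nothing. Of 29 measured genes of ribosome biogenesis and MYC targets, 19 were lower and none higher, all as synergy. The list median was -0.60 against 0.03 for all genes. Over all genes 1.84% were lower, 0.411% higher and 2.25% either, which is also the background of the list counts that follow. Polr1b, a subunit of RNA polymerase I, read 11.04 and 11.08 untreated, 10.82 and 10.84 with 4OHT, 10.09 and 10.06 without IL-7 and 8.38 and 8.34 with both (interaction -1.48, adjusted p = 5e-05). The nucleolar GTPase gene Gnl3 had an interaction of -1.02 (adjusted p = 0.000274), and the pseudouridine synthase gene Dkc1 -1.05 (adjusted p = 0.00198). The snoRNP genes Nop58 (-0.67), Nop56 (-0.50) and Fbl (-0.55) passed, and the nucleolar genes Npm1 (-0.46) and Ncl (-0.14) did not. Without the experiment number 8 of the 19 passed; Dkc1 missed narrowly there (adjusted p = 0.0572).

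Polyamine and nucleotide enzymes were described with lists made after values had been seen, so their counts support nothing. Of 10 polyamine and methionine salvage genes Srm, Mtap and Odc1 passed, all lower, and the median was -0.24. Mtap, which recycles the by-product of spermidine synthesis, read 10.15 and 9.90, 9.70 and 9.70, 9.55 and 9.38, and 7.85 and 7.58 (interaction -1.42, adjusted p = 2.6e-05). Odc1, the first enzyme of the route, had an interaction of -0.97 (adjusted p = 0.0248), lost without the experiment number (adjusted p = 0.272). Of 32 nucleotide synthesis genes 11 were lower and 1, Adssl1 (0.45), was higher, with a median of -0.48. The CTP synthase gene Ctps (-1.40), the purine enzyme genes Atic (-1.31), Gart (-0.94) and Ppat (-0.66) and the folate enzyme gene Mthfd1 (-1.30) passed. Ctps read 9.67 and 9.37 untreated, 9.53 and 9.51 with 4OHT, 8.24 and 8.18 without IL-7 and 6.91 and 6.70 with both. Thymidylate synthase, Tyms (-0.78), and the ribonucleotide reductase genes Rrm1 (-0.39) and Rrm2 (-0.48) did not pass. Of the 12 genes 8 passed without the experiment number.

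Genes of entry into S phase, of DNA replication and of mitosis were counted separately. Among 17 D and E cyclin, CDK and E2F genes, 5 were lower, 1 (E2f2, described below) was higher and the median was -0.29. Ccnd2, the cyclin gene that IL-7 sustains, read 12.21 and 12.34 untreated, 11.65 and 11.86 with 4OHT, 10.29 and 10.68 without IL-7 and 8.40 and 8.96 with both. Its interaction was -1.28 (SE 0.124, adjusted p = 0.00019), and the mean with both treatments was 12.1-fold below untreated. On a linear scale its interaction was above 0 in both experiments, so the synergy holds for ratios and not for absolute differences. The experiments differed in level, and without the experiment number the adjusted p was 0.0587. Ccnd1, at 10.35 and 10.35, 9.83 and 9.89, 9.78 and 9.74, and 8.36 and 8.32, had an interaction of -0.93 (adjusted p = 0.000467), held under all 15 alternatives. E2f3 (-0.62), E2f6 (-0.50) and Cdk6 (-0.41) also passed, none of these 3 without the experiment number. Ccnd3 did not (-0.16, adjusted p = 0.407), nor did Ccne1 (-0.69) or Ccne2 (-0.67).

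Of 37 DNA replication genes 7 were lower and none higher, all as synergy, and 33 had an interaction below 0 (median -0.38). Pole2, a subunit of the leading strand polymerase, read 10.95 and 10.87, 10.63 and 10.69, 9.62 and 9.70, and 8.23 and 8.18 (interaction -1.21, adjusted p = 0.000398). Pola1 (-0.89), Rfc5 (-0.80), Lig1 (-0.73), Mcm6 (-0.72), Mcm7 (-0.52) and Pcna (-0.40) were the others. Pole2 was the only 1 of the 7 to pass without the experiment number. Of 29 genes of G2, M phase and mitosis none passed in the limma fit with the block or without it, and 6 did at an unadjusted p under 0.05. Their median was 0.07, with Kif23 at 0.43 (adjusted p = 0.0513) and Aurkb at 0.39 (adjusted p = 0.212). Aurkb read 12.26 and 12.24 untreated, 10.70 and 10.43 without IL-7 and 11.07 and 10.98 with both, so the arrays with both treatments did not lie below those without IL-7. The difference between the replication and mitosis lists was not tested.

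**Figure D3:**
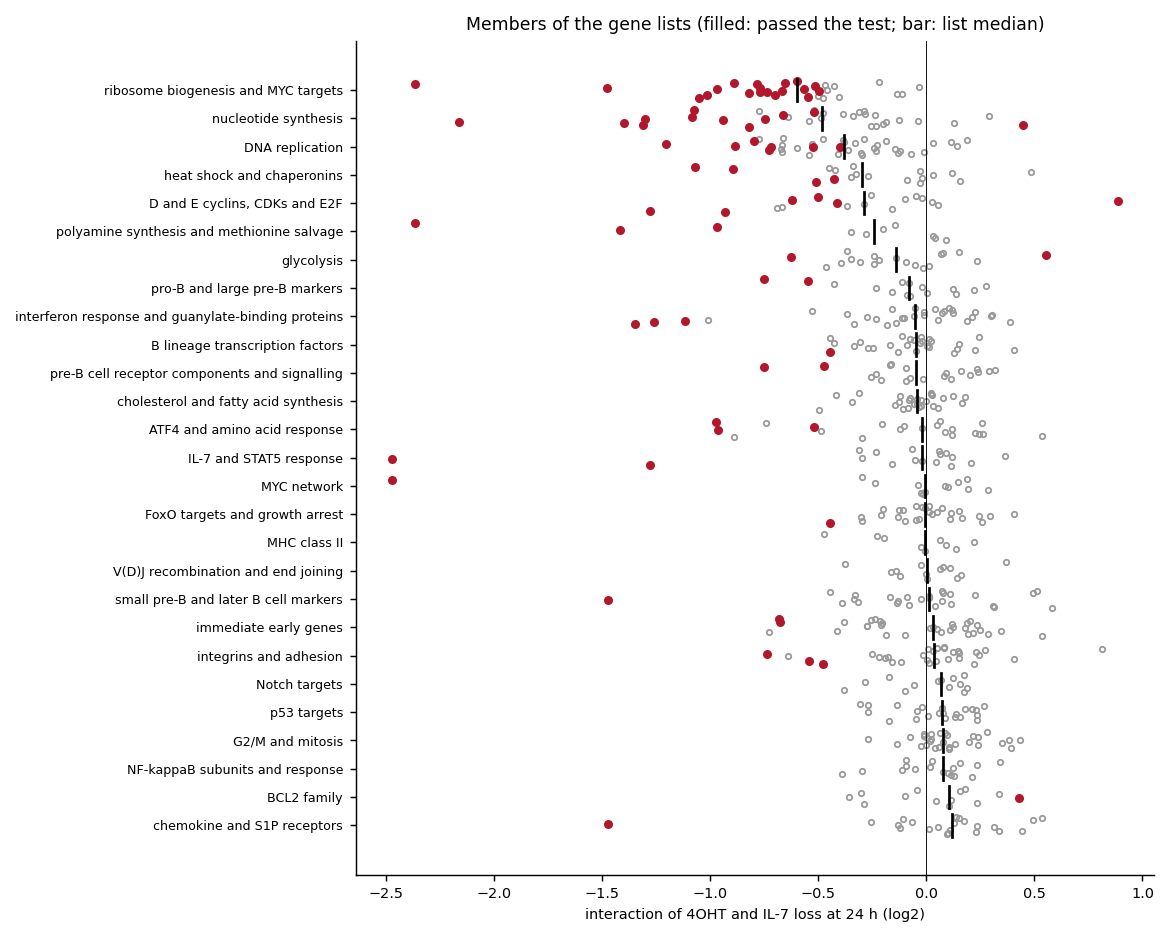
Interaction (log2, x axis) of each measured member of the gene lists (rows), filled where the gene passed the test, with the list median as a bar. The ribosome biogenesis list has the lowest median (-0.60) with 19 of 29 members passing, and the mitosis list has a median of 0.07 with none.

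Protein folding and amino acid genes showed fewer calls. Of 18 heat shock and chaperonin genes 4 were lower (median -0.30): Hsph1 (-1.07, adjusted p = 0.000462), the mitochondrial chaperonin gene Hspd1 (-0.90), Cct3 (-0.51) and Cct6a (-0.43). Hsph1 read 10.82 and 10.68, 10.43 and 10.35, 10.57 and 10.51, and 9.21 and 9.005, and was the only 1 of the 4 to pass without the experiment number. Of 21 genes of the ATF4 and amino acid response Slc7a5 (-0.97), a transporter of large amino acids, and the serine pathway genes Phgdh (-0.97) and Shmt2 (-0.52) were lower, and the median was -0.02. None of these 3 passed without the experiment number. Of 19 glycolysis genes Pgk1 was lower (-0.63, adjusted p = 0.0392) and the lactate transporter gene Slc16a1 was higher, as opposition (0.55, adjusted p = 0.0177), again not without the experiment number.

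Of 20 genes of the pre-B cell receptor, the signalling complex of immunoglobulin heavy chain and surrogate light chain, 2 were lower and the median was -0.05. Vpreb1, which encodes a part of the surrogate light chain, read 10.96 and 10.89 untreated, 10.31 and 10.37 with 4OHT, 11.18 and 11.25 without IL-7 and 9.79 and 9.97 with both. IL-7 loss alone was associated with the highest and both treatments with the lowest level, with an interaction of -0.75 (SE 0.0968, adjusted p = 0.00111; 0.00756 without the experiment number). Vpreb2, a close copy whose probe set could read Vpreb1 in part, had an interaction of -0.48 (adjusted p = 0.0398), lost without the experiment number (0.109). Igll1, the other surrogate light chain gene, had -0.23 (adjusted p = 0.208), and the adaptor gene Blnk -0.21 (adjusted p = 0.463). Of 15 markers of pro-B and large pre-B cells Vpreb1 and Spn, the sialophorin gene (-0.55, adjusted p = 0.0172; 0.0596 without the experiment number), were lower.

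Of 17 IL-7 and STAT5 response genes only Myc and Ccnd2 passed. The STAT5 target Cish read 9.52 and 9.58, 8.78 and 8.57, 8.22 and 8.18, and 7.55 and 7.51, with an interaction of 0.21 (adjusted p = 0.426). Its mean with both treatments was 7.53, beside 7.32 from the sum of the single differences. For the IL-7 receptor gene Il7r the interaction was -0.02 (adjusted p = 0.959), for Ikzf1 itself 0.01 (adjusted p = 0.969) and for Bcl2 0.05 (adjusted p = 0.872). The probe sets of Ikzf1 and Bcl2 could read the resident gene, the retroviral copy or both, which was not tested. Foxo1, the transcription factor that IL-7 signals restrain, had 0.41 (adjusted p = 0.194), Spib -0.45 (adjusted p = 0.066), Irf4 -0.09 (adjusted p = 0.813) and Cd79a 0.11 (adjusted p = 0.715).

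The 6 h arrays add nothing to the value of the interaction, though they enter the estimate of its spread. They held another measure of the same genes: IL-7 loss for 6 h in the presence of 4OHT against 4OHT with IL-7. Of the 322 genes of synergy toward lower levels 206 were lower at 6 h (64%), against 10% of all genes. Another 38 were higher (11.8%, against 11.2% of all genes). The class requires a 24 h mean with both treatments below that with 4OHT alone. All 322 thus fell with IL-7 loss under 4OHT at 24 h, which makes all genes an unlike background. The 6 h shares describe the class and do not bear on the interaction. Myc read 13.30 and 13.18 with IL-7 and 11.31 and 10.92 without it at 6 h, a difference of -2.13 (adjusted p = 1.68e-08). Srm (-3.29), Dctd (-3.05) and Ccnd2 (-2.71) were lower as well, while Nrp2 (0.14, adjusted p = 0.236) was not and Il33 was higher (0.92, adjusted p = 0.0115). No 6 h array lacked 4OHT, so the interaction itself has no value at 6 h.

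Synergy toward higher levels was found in 48 genes, with a median interaction of 0.55. Both single mean differences pointed up in 15 of these genes. Only the IL-7 loss difference pointed down in 16, only the 4OHT difference in 1, and both in 16. Both arrays with both treatments lay above the 6 others in 34 of the 48 (70.8%, against 21.8% of all genes in the direction of their own interaction). The 48 genes were chosen on these arrays, so this share describes the class and supports nothing. After 6 h of IL-7 loss under 4OHT 15 were higher (31.2%, against 11.2% of all genes) and 1 was lower (2.08%, against 10%). The class requires a 24 h mean with both treatments above that with 4OHT alone, so all genes are an unlike background here too. Nuggc, a nuclear GTPase gene of germinal centre B cells, read 6.44 and 6.45 untreated, 7.50 and 7.52 with 4OHT, 6.45 and 6.51 without IL-7 and 8.88 and 8.66 with both. The IL-7 loss difference without 4OHT was 0.03 (adjusted p = 0.85) and the interaction was 1.23 (SE 0.123, adjusted p = 0.000223). S100a10, which encodes an annexin partner, read 11.63 and 11.57, 11.93 and 11.92, 10.80 and 10.69, and 12.18 and 12.16, so it was lowest after IL-7 loss alone and highest with both (interaction 1.11, adjusted p = 0.000151). Cysltr1, a leukotriene receptor gene, read 10.64 and 10.15, 10.55 and 10.30, 10.50 and 10.42, and 11.55 and 11.30. Its 3 other groups overlapped and the arrays with both treatments stood above them (interaction 0.94, adjusted p = 0.00931).

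The other 5 of the 8 largest were Ckm, the muscle creatine kinase gene (0.99), the zinc finger gene Zfp831 (0.92), Polh, a translesion DNA polymerase gene (0.85), Tram2 (0.85) and Abca1, the cholesterol exporter gene (0.83). In Polh and Abca1 the arrays with both treatments overlapped another group. Polh read 11.72 and 11.25 with both and 11.41 and 11.18 with 4OHT alone. Abca1 read 7.39 and 7.60 with both and 7.35 and 7.42 untreated, and each single difference pointed down. Nuggc, S100a10, Zfp831 and Tram2 passed without the experiment number; Ckm (adjusted p = 0.0587), Cysltr1 (0.162), Polh (0.292) and Abca1 (0.08) did not. In 20 of the 48 genes (41.7%, against 50% of all genes) the lowest group mean was under the median of all values. Without the experiment number 7 of the 48 were called in the same class. Of 13 BCL2 family genes the pro-apoptotic Bcl2l11 was the 1 that passed, at 9.64 and 9.54, 9.88 and 9.89, 9.41 and 9.48, and 10.24 and 10.11 (interaction 0.43, adjusted p = 0.0486; 0.119 without the experiment number).

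**Figure D4:**
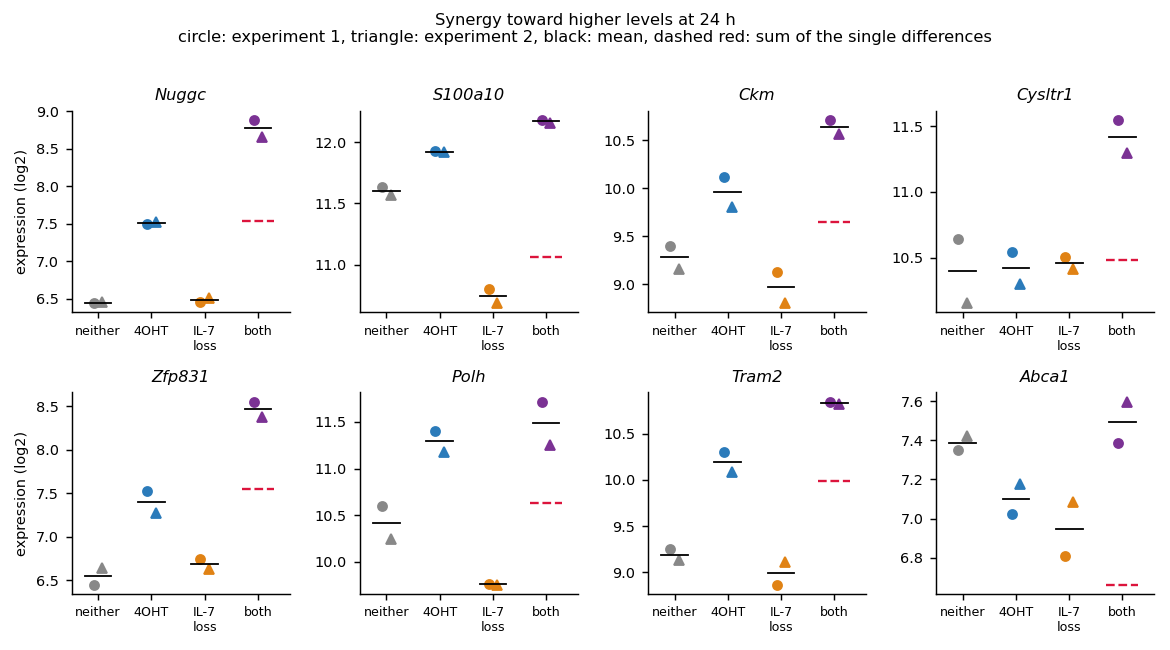
The 8 genes with the largest synergy toward higher levels, drawn as log2 expression per 24 h array with the group mean (black) and the sum of the single differences (dashed red). Nuggc stays at 6.45 and 6.51 after IL-7 loss alone and reaches 8.88 and 8.66 with both treatments.

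Opposition with an interaction below 0 was found in 45 genes (median -0.58), in which both treatments together gave less than the sum without setting a new lowest mean. Of these, 26 were higher after 6 h of IL-7 loss under 4OHT (57.8%, against 11.2% of all genes) and 6 were lower (13.3%, against 10%). The interferon-induced GTPase genes Gbp11, Gbp4 and Gbp8 were among the 4 largest. Gbp8 read 8.82 and 8.61 untreated, 7.52 and 7.27 with 4OHT, 10.78 and 10.54 without IL-7 and 8.31 and 8.13 with both. IL-7 loss thus added 1.95 without 4OHT and 0.83 with it, and the interaction was -1.12 (SE 0.103, adjusted p = 0.000151). Gbp11 read 8.28 and 8.37, 7.17 and 6.82, 10.28 and 10.64, and 7.91 and 7.66, an interaction of -1.35 (adjusted p = 0.00325). In Gbp4, at 7.69 and 7.54, 7.14 and 7.22, 9.96 and 9.82, and 7.90 and 8.48, it was -1.26 (adjusted p = 0.0392).

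These GTPase genes are close copies whose probe sets may read each other in part. Without the experiment number Gbp11 passed, and Gbp4 (adjusted p = 0.0949) and Gbp8 (0.0587) did not; leaving out 1 array ended the call of Gbp4 in 7 of 8 cases. The other 28 of 31 interferon response genes did not pass, and the list median was -0.05.

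Cxcr5, the chemokine receptor gene for entry into B cell follicles, had the largest opposition. It read 6.49 and 6.26 untreated, 8.65 and 8.04 with 4OHT, 5.46 and 5.51 without IL-7 and 5.80 and 6.17 with both. The 4OHT difference was 1.97 with IL-7 and 0.50 without it, and the interaction was -1.47 (SE 0.236, adjusted p = 0.00539). Cxcr5 was above the median of all values in the 4OHT group only, and whether it was above background elsewhere was not measured. At 6 h it read 8.43 and 8.62 with 4OHT and IL-7 and 5.64 and 5.67 with 4OHT and no IL-7. No other of the 26 markers of small pre-B and more mature B cells (median 0.01) or the 22 chemokine and S1P receptors (median 0.12) passed.

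Prss23, a serine protease gene, read 10.17 and 10.11 untreated and between 10.91 and 11.17 on the 6 arrays with either or both treatments, and the arrays with both overlapped those with 4OHT alone (interaction -0.85, adjusted p = 0.000541). Ksr2, a scaffold gene of the ERK cascade, read 9.23 and 9.22, 8.34 and 8.42, 10.31 and 10.36, and 8.60 and 8.69 (interaction -0.84, adjusted p = 0.00171). The protocadherin gene Pcdh19 (-0.94) and Greb1 (-0.81), known as an estrogen-responsive gene in other cells, were the remaining 2. Both lost the call without the experiment number (adjusted p = 0.455 and 0.738). Bcl6, the repressor that rises when IL-7 is lost, read 8.86 and 8.66, 8.74 and 8.82, 10.40 and 10.41, and 10.06 and 9.90, and just passed (-0.44, adjusted p = 0.0487; 0.186 without the experiment number). It was the 1 passing gene of 27 B lineage transcription factors (median -0.05) and of 27 FoxO target and growth arrest genes (median -0.01).

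Opposition with an interaction above 0 was found in 34 genes (median 0.59). In 23 of them each single difference pointed down, and in 11 IL-7 loss alone did. After 6 h of IL-7 loss under 4OHT 10 were lower (29.4%, against 10% of all genes) and 4 were higher (11.8%, against 11.2%). The iron importer gene Tfrc, the transferrin receptor, read 12.05 and 11.81 untreated, 11.88 and 11.72 with 4OHT, 10.16 and 10.27 without IL-7 and 11.54 and 10.93 with both. The loss of IL-7 thus lowered it by less in the presence of 4OHT (interaction 1.14, SE 0.2, adjusted p = 0.00899). Cenpq, a kinetochore gene, followed the same order at 10.67 and 10.22, 10.50 and 10.30, 9.18 and 8.93, and 10.24 and 10.03 (interaction 1.13, adjusted p = 0.000223; 0.117 without the experiment number). E2f2, a transcription factor gene of the cell cycle, read 9.87 and 9.80, 10.95 and 10.79, 8.39 and 8.17, and 10.40 and 10.01, so with both treatments it stood above untreated, where the sum would put it below, at 9.31 (interaction 0.89, adjusted p = 0.00351; 0.264 without the experiment number). On a linear scale its interaction was below 0 in both experiments.

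In 3 of the 8 largest the 4OHT difference passed the test in opposite directions with and without IL-7. The adhesion receptor gene Adgrg1 read 11.17 and 10.75, 10.73 and 10.37, 10.03 and 9.80, and 10.86 and 10.63, which is -0.41 with IL-7 and 0.82 without it (interaction 1.24, SE 0.127, adjusted p = 0.000248). Cd248, the endosialin gene, read 9.85 and 9.94, 9.47 and 9.45, 9.04 and 9.17, and 9.65 and 9.93 (interaction 1.12, adjusted p = 0.000167). The Fc receptor-like gene Fcrl1 of B cells read 10.43 and 10.23, 9.96 and 9.82, 9.80 and 9.77, and 10.22 and 10.20 (interaction 0.87, adjusted p = 0.00093). All 3 passed under the 15 alternatives, and in each the arrays with both treatments stood near the untreated ones.

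Nkg7, a granule protein gene of NK and T cells, read 7.89 and 7.52 untreated and 6.39 to 6.61 on the 6 other arrays (interaction 1.18, adjusted p = 0.00921; 0.0587 without the experiment number). Its 3 treated groups had means under the median of all values, and whether they were above background was not measured. It was the 1 of 5 NK cell markers that passed. The list median was 0.36, and 3 of the 5 had an unadjusted p under 0.05 in the limma fit. The summed level of the 5 was 30.5 untreated, 29.9 with 4OHT, 29.3 without IL-7 and 31.1 with both. The part of other cells in these values was not tested. Nrxn3, the neurexin gene, had 0.98 and lost its call without the experiment number (adjusted p = 0.431).

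**Figure D5:**
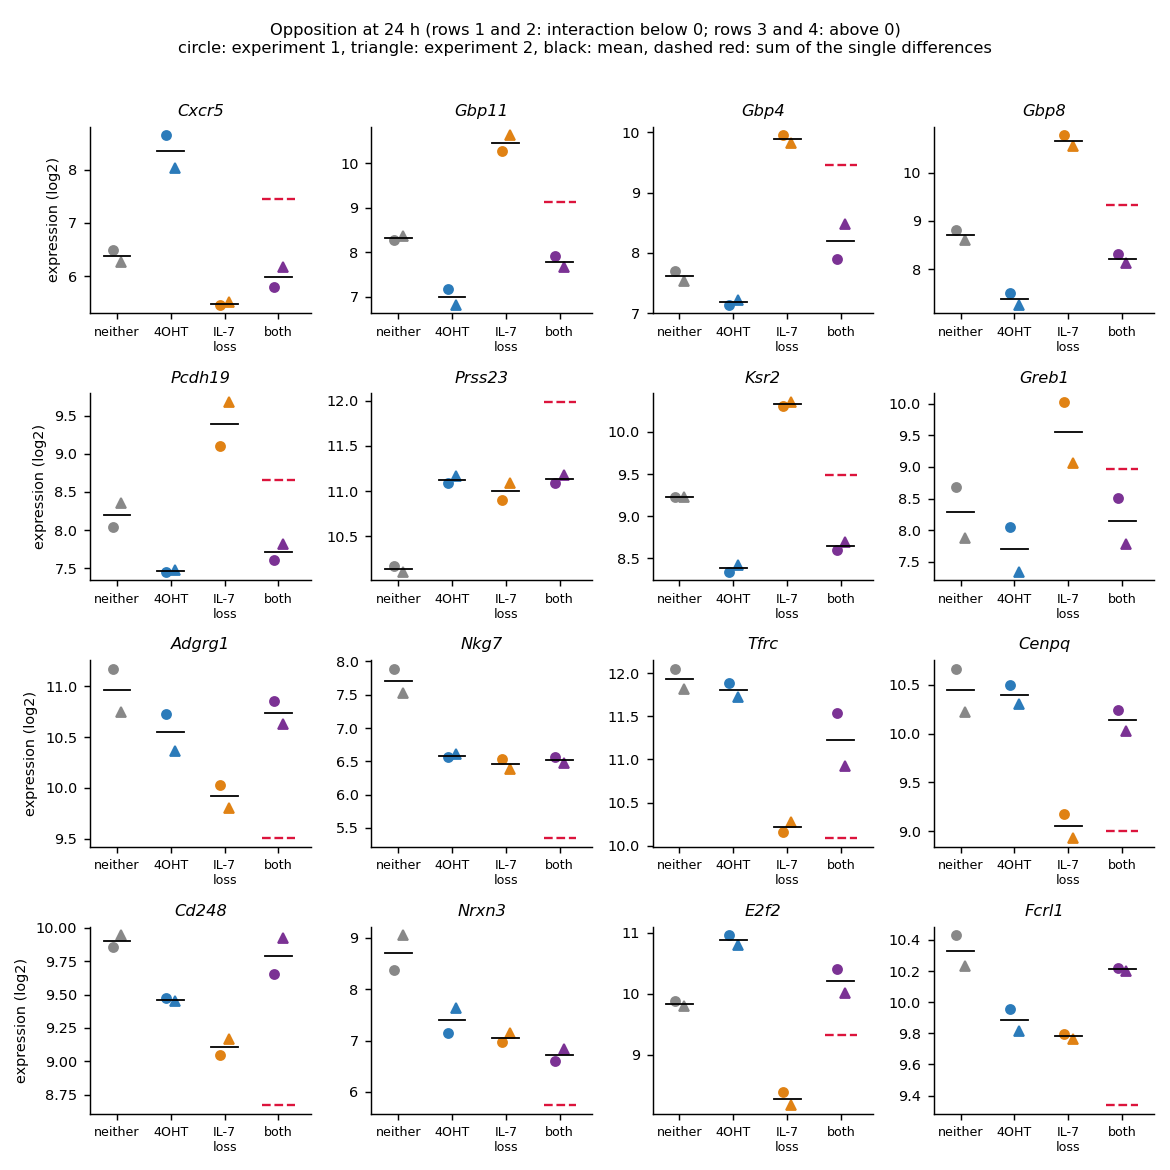
The 16 genes with the largest opposition, 8 with an interaction below 0 (upper rows) and 8 above 0 (lower rows), as log2 expression per 24 h array with group means (black) and the sum of the single differences (dashed red). Gbp8 with both treatments, at 8.31 and 8.13, lies under its sum of 9.34, and Adgrg1, at 10.86 and 10.63, lies over its sum of 9.50.

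Of 31 immediate early genes, those first induced by receptor signals, 2 were lower and the median was 0.03. The ERK inhibitor gene Spry2 read 8.22 and 8.17, 7.90 and 7.70, 8.49 and 8.56, and 7.45 and 7.45 (interaction -0.68, adjusted p = 0.00434). Nr4a1, a nuclear receptor gene, showed opposition, with an interaction of -0.68 (adjusted p = 0.0358; 0.0933 without the experiment number). Of 30 integrin and adhesion genes Itgav (-0.74), the catenin gene Ctnnd1 (-0.54) and Cd44 (-0.48) had passing interactions below 0, none of them without the experiment number, and the median was 0.04. Ctnnd1 and Cd44 showed synergy. Itgav showed opposition: it read 11.23 and 11.38 untreated, 11.14 and 11.29 with 4OHT, 11.95 and 12.21 without IL-7 and 11.15 and 11.35 with both.

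Calls near the threshold depended on single arrays. Leaving out 1 array ended the call in 8 of 8 cases for E2f6, and in 7 for E2f3, Pola1, Slc7a5, Phgdh, Cct3, Vpreb2, Bcl6, Bcl2l11, Pcdh19, Nr4a1 and Gbp4. It did so in 6 for Lig1, Mcm6, Pgk1, Slc16a1, Shmt2, Cct6a, Spn, Mir18 and Mir19a, in 5 for Nrxn3, in 4 for Odc1, Zfp831, Ctnnd1, Cd44 and Mir181a-1, in 2 for Rfc5 and Nkg7, and in 1 for Tfrc, Cysltr1 and Greb1. No single omission ended the call of Myc, Srm, Dctd, Ccnd2, Ccnd1, Polr1b, Pole2, Vpreb1, Cxcr5, Gbp8, Gbp11, Nuggc or Adgrg1.

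Other lists held no passing gene in the limma fit, with the block or without it. These were 13 genes of V(D)J recombination and end joining (median 0.00, 2 at an unadjusted p under 0.05), 27 of cholesterol and fatty acid synthesis (-0.04, 4), 22 p53 targets (0.07, 3), 17 of NF-kappaB (0.08, 3), 9 of MHC class II (0.00, 1) and 13 Notch targets (0.07, 1). The same held for the marker lists of stromal cells (median 0.19, 0 at an unadjusted p under 0.05), plasma cells (0.08, 0), the erythroid and megakaryocyte lineages (0.19, 2), myeloid cells (0.14, 0) and T cells (0.12, 0). Of 7 B lineage markers Vpreb1 passed (median -0.08).

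The probe sets of 3 microRNA genes, named after their values were seen, also passed. They read the hairpin or its host RNA and not the mature strand, so the sequences below, which RefSeq lists for these genes with the seed (bases 2 to 8) in capitals, identify the genes and not a measured product. Mir18 read 9.06 and 9.12 untreated, 9.10 and 9.06 with 4OHT, 8.06 and 8.41 without IL-7 and 7.34 and 6.91 with both (interaction -1.10, adjusted p = 0.0365). Mir19a had -1.04 (adjusted p = 0.0181), and both showed synergy toward lower levels; their mature strands lie at chr14:115043867-115043889 and chr14:115044048-115044070 (GRCm38.p6, plus strand). Mir181a-1, at chr1:137966468-137966490, read 5.92 and 6.34, 6.42 and 6.74, 7.26 and 7.69, and 6.83 and 7.26, an opposition with an interaction of -0.88 (adjusted p = 0.0115). None of the 3 passed without the experiment number (adjusted p = 0.158, 0.167 and 0.613). Mir18 and Mir19a lie close together on the same strand, and whether they are separate results was not tested. The Mir19a means without IL-7 (6.66) and with both treatments (5.54) were under the median of all values. Mir181a-1 was above that median only after IL-7 loss alone (mean 7.48), and whether it was above background elsewhere was not measured. The 3 seeds differ.
miR-18a-5p: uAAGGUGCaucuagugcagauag
miR-19a-3p: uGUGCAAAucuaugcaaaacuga
miR-181a-5p: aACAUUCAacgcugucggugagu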

How the data were processed

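The labels name 14 microarrays of 1 line in 7 groups of 2, with the experiment number in each title. Log2 values of 35556 probe sets were deposited by the authors in 1 table, made with RMA in Affymetrix Expression Console 1.1 by the submitters' processing notes. Build, annotation and further settings: not given in the sources used here. The values were used as deposited. Of the probe sets 21789 had 1 gene symbol, 1621 several and 12146 none; the brightest probe set of each gene was kept, which left 19938 genes.

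The interaction was fitted with limma 3.58.1 in R 4.3.3 (lmFit, eBayes) on all 14 arrays, with a mean per group and the experiment number as a block (6 residual and 6.58 prior degrees of freedom). Tests were two-sided, Benjamini-Hochberg adjusted over all genes, at 0.05 with no fold minimum. The block follows from the differences being taken within an experiment; the labels give 2 independent experiments, and deviations of same-numbered arrays correlated at 0.124 to 0.631 (median 0.392) in all 21 pairs of groups. The experiments used 1 cell line, so p-values measure the spread between these cultures. The fit was tested on simulated data.

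The genes named were the 8 with the largest passing interaction in each class, the passing members of the gene lists with the largest values, and a set of landmark genes; further names were chosen after values were seen. Predicted genes, small RNAs and unnamed transcripts were left out of the first. Members and lists were chosen with earlier results of these data known. Alternatives were the fit without the block, the 24 h arrays only, renewed quantile normalization, dim genes left out, the mean of a gene's probe sets, a trended robust prior, a minimum log2 change of 0.3, and each 24 h array left out. RMA brings arrays toward a common distribution, so a shift shared by most genes may not show, and the number of arrays limits the precision. The medians of the deposited arrays still ranged from 7.23 to 7.43.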

Additional observations from a re-analysis of the deposited data

Results flagged for a closer look

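The 4OHT difference at 24 h differed with and without IL-7 in 449 genes by the test of the interaction. In 17 of 19938 genes this 4OHT difference passed in opposite directions with and without IL-7. The naming rule allows 14 of them. Toward higher without IL-7, the interaction was 1.24 in Adgrg1, 1.12 in Cd248, 0.87 in Fcrl1, 0.83 in Abca1 and 0.51 in Fam163b. Toward lower without IL-7, it was -0.98 in Dgke, a diacylglycerol kinase gene, -0.88 in Tbc1d32, -0.82 in Sit1, an adaptor gene of lymphocytes, -0.57 in Mgat4a, -0.55 in Mrps18a, -0.52 in Samsn1, -0.50 in Mreg, -0.48 in St3gal6 and -0.39 in Lsm6. Adgrg1, Cd248, Fcrl1, Tbc1d32 and Sit1 passed without the experiment number as well; the 9 others did not (adjusted p = 0.0543 to 0.307). Of the 13767 probe sets with several gene symbols or none, which entered no gene comparison, 2 passed the same test (0.0145%), 1 higher and 1 lower.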

How the results depend on the processing

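The replicate block was the choice that moved the counts most, apart from a fold minimum. Without it 137 genes passed, 14 higher and 123 lower, 122 as synergy and 15 as opposition; with a minimum log2 change of 0.3 the counts were 82, 8, 74, 74 and 8. Leaving out 1 array at a time gave 201 to 325 genes, 35 to 55 higher, 162 to 274 lower, 168 to 276 as synergy and 26 to 71 as opposition. The other settings gave 427 to 597 genes. The 206 genes of synergy toward lower levels that were also lower at 6 h ranged from 151 to 212. Of the 449 genes 67 passed under all 15 alternatives, 62 of them lower; 1 of the 449 changed sign under some alternative. Of 88 passing genes followed singly through the alternatives, which are not all the genes named, 31 passed under all. Signs changed in 8 named genes that did not pass. After renewed quantile normalization Il7r was at 0.081 and Il2ra at -0.020. Over the arrays left out in turn Ikzf1 ranged from -0.017 to 0.041, Bcl2 from -0.024 to 0.12, Il7r from -0.096 to 0.058, Rag2 from -0.11 to 0.26, Cd79a from -0.019 to 0.24, Irf4 from -0.19 to 0.0095, Il2ra from -0.13 to 0.15 and Itgam from -0.055 to 0.54. The cause was not tested. A missed threshold does not show that differences add up.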

Other observations

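The genes below were picked after their values were seen, from no list, so they stand as single values. The first showed synergy toward lower levels. Pdcd1, the gene of the inhibitory receptor PD-1, read 9.90 and 9.81 untreated, 9.09 and 9.12 with 4OHT, 9.78 and 10.00 without IL-7 and 7.75 and 7.68 with both (interaction -1.43, adjusted p = 0.00634). The inflammasome sensor gene Nlrp3 read 7.59 and 7.38, 5.88 and 6.00, 8.73 and 8.91, and 5.96 and 5.73 (interaction -1.43, adjusted p = 0.000321). Its levels with 4OHT lay under the median of all values and overlapped with and without IL-7. The prostaglandin receptor gene Ptger4 (-1.21), the adaptor gene Lax1 (-1.07), Tnfsf10, the gene of the death ligand TRAIL (-1.03), and Tlr4 (-0.91) passed as well, Tlr4 not without the experiment number (adjusted p = 0.0733). Under 4OHT the IL-7 loss difference passed the limma test in Tlr4 (-0.74, adjusted p = 0.000226). It did not in Ptger4 (-0.24, adjusted p = 0.0796), Lax1 (-0.21, adjusted p = 0.108) or Tnfsf10 (-0.21, adjusted p = 0.133). In Lax1 each single difference pointed up, and the mean was 8.52 with both treatments and 8.70 untreated. The checkpoint kinase gene Chek1 (-1.05), the ubiquitin ligase gene Skp2 (-0.91) and Mettl1, a tRNA methyltransferase gene (-1.48), were lower, Chek1 not without the experiment number (adjusted p = 0.176).

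Others showed synergy toward higher levels. Rasgrp2, an activator of RAP1, read 9.59 and 9.71 untreated, 10.15 and 10.02 with 4OHT, 9.86 and 9.95 without IL-7 and 11.00 and 10.89 with both (interaction 0.61, adjusted p = 0.0102). The GTPase gene Rac2 had 0.47 (adjusted p = 0.00957). Ralgps2 (0.64), Pou2f2, which encodes the B cell factor OCT2 (0.54), Pik3c2b (0.50) and Apobec3 (0.38) passed only with the experiment number in the fit (adjusted p = 0.272, 0.166, 0.0592 and 0.0833 without it). Leaving out 1 array ended the call of Apobec3 in 8 of 8 cases, of Pou2f2 and Pik3c2b in 6, of Rasgrp2 in 4, of Ralgps2 in 3, of Rac2 and Tlr4 in 2, and of Chek1 and Skp2 in 1. IL-7 loss passed in opposite directions with and without 4OHT in 44 of 19938 genes.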
